A study of Mus musculus with 18 samples.

Results

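The matrix metalloproteinases (MMP), the membrane-bound ADAM proteases, the secreted ADAMTS proteases and their tissue inhibitors (TIMP) were followed through ultraviolet-driven skin carcinogenesis. The members were the rows of the expression table whose gene symbol was Mmp, Adam, Adamts or Timp followed by a number, with a letter where a gene has copies. This gave 56 of 14521 named genes, namely 19 MMP, 15 ADAM, 18 ADAMTS and 4 TIMP genes. RNA was sequenced from 6 SKH-1E mice, an outbred hairless strain, and each mouse (2, 3, 7, 8, 9 and 10) gave lesion-free irradiated skin (CHR), 1 benign papilloma (PAP) and 1 squamous cell carcinoma (SCC), with n = 6 libraries in each group. The animals were female littermates that carried no engineered allele, and all 3 groups came from skin exposed over a long period to simulated sunlight with UVB and UVA, so that unirradiated skin was not analysed here. Every sample was bulk tissue, in which fewer cells of a type and less RNA per cell cannot be told apart.

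As background, these enzymes use zinc to cut proteins outside the cell. MMPs degrade collagen, elastin and other matrix proteins and are made as inactive precursors. ADAMs mainly release the outer parts of membrane proteins such as growth factors, ADAMTS enzymes cut proteoglycans or trim procollagens, and TIMPs bind and block the active site. In skin, resting epidermis makes little collagenase, whereas keratinocytes at wound edges and in tumours are known to make MMP13, MMP10 and interstitial collagenase. Dermal fibroblasts are a known source of MMP2, MMP14 and the TIMPs, and macrophages of the elastase MMP12.

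Values are given as normalised reads, that is, reads recovered from the deposited scores and divided by the size factor of the library. Log2 fold changes are differences of group means of the log2 of the deposited value plus 1, ± the standard error of limma, and a gene was called at an adjusted p under 0.05. The deposited scale compresses low values, so fold changes of weakly expressed genes are understated. Comparisons of PAP and of SCC with CHR share the same 6 CHR libraries.

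Libraries held 15.4 to 21.0 M recovered reads. Keratinocyte and fibroblast markers were present in all 18 libraries, but the tissue around the epidermis differed between groups. In PAP vs CHR, 8 of 10 keratinocyte markers were higher, whereas 7 of 10 fibroblast, 10 of 11 macrophage, 8 of 8 skeletal muscle, 6 of 6 adipocyte, 6 of 6 T cell and 6 of 6 mast cell markers were lower. Of the other lists, 2 of 7 neutrophil markers (Mpo and Csf3r) and 3 of 7 endothelial markers (Pecam1, Vwf and Tek) were lower and the rest were not called, and Krt10, of the keratinocyte list, was lower. Summed macrophage markers were 30630.2 to 48848 normalised reads in CHR, 1923 to 7918 in PAP and 5473 to 48045 in SCC, and summed fibroblast markers were 141956 to 312938, 5814 to 167118 and 19112 to 503182, with no marker of either list at 0 throughout a group. The part of these shifts in the results was not tested. The carcinoma of mouse 10 stood apart, with the lowest fibroblast marker sum of the carcinomas, and was lowest of its group in 33 of the 56 members. The papilloma of mouse 10 was lowest of the papillomas in 28 members. The carcinoma of mouse 2 was lowest in 4 of 5 epithelial proteases.

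In PAP vs CHR, 36 of 56 members were called, 10 higher and 26 lower, beside 51.5% of all genes called, 22.8% higher and 28.7% lower. The median log2 fold change of the members was -0.50, against 0.0014 over all genes. In SCC vs CHR, 24 members were called, 11 higher and 13 lower, beside 36.5% of all genes, 15.1% higher and 21.4% lower. Without mouse 9, 15 members were called, a count for which the share of all genes is not given here. In SCC vs PAP, 3 members were called, all higher in SCC, beside 5.58% of all genes, 4.99% higher and 0.592% lower. With the mouse as a block, that last count became 17, all higher in SCC, beside 9.85% of all genes. The 6 libraries of PAP and of CHR did not overlap in 23 members, beside 33.6% of all genes, and those of SCC and CHR did not overlap in 6 members, beside 19.7%. Those of SCC and PAP overlapped in every member, while 0.413% of all genes did not overlap.

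**Figure D1:**
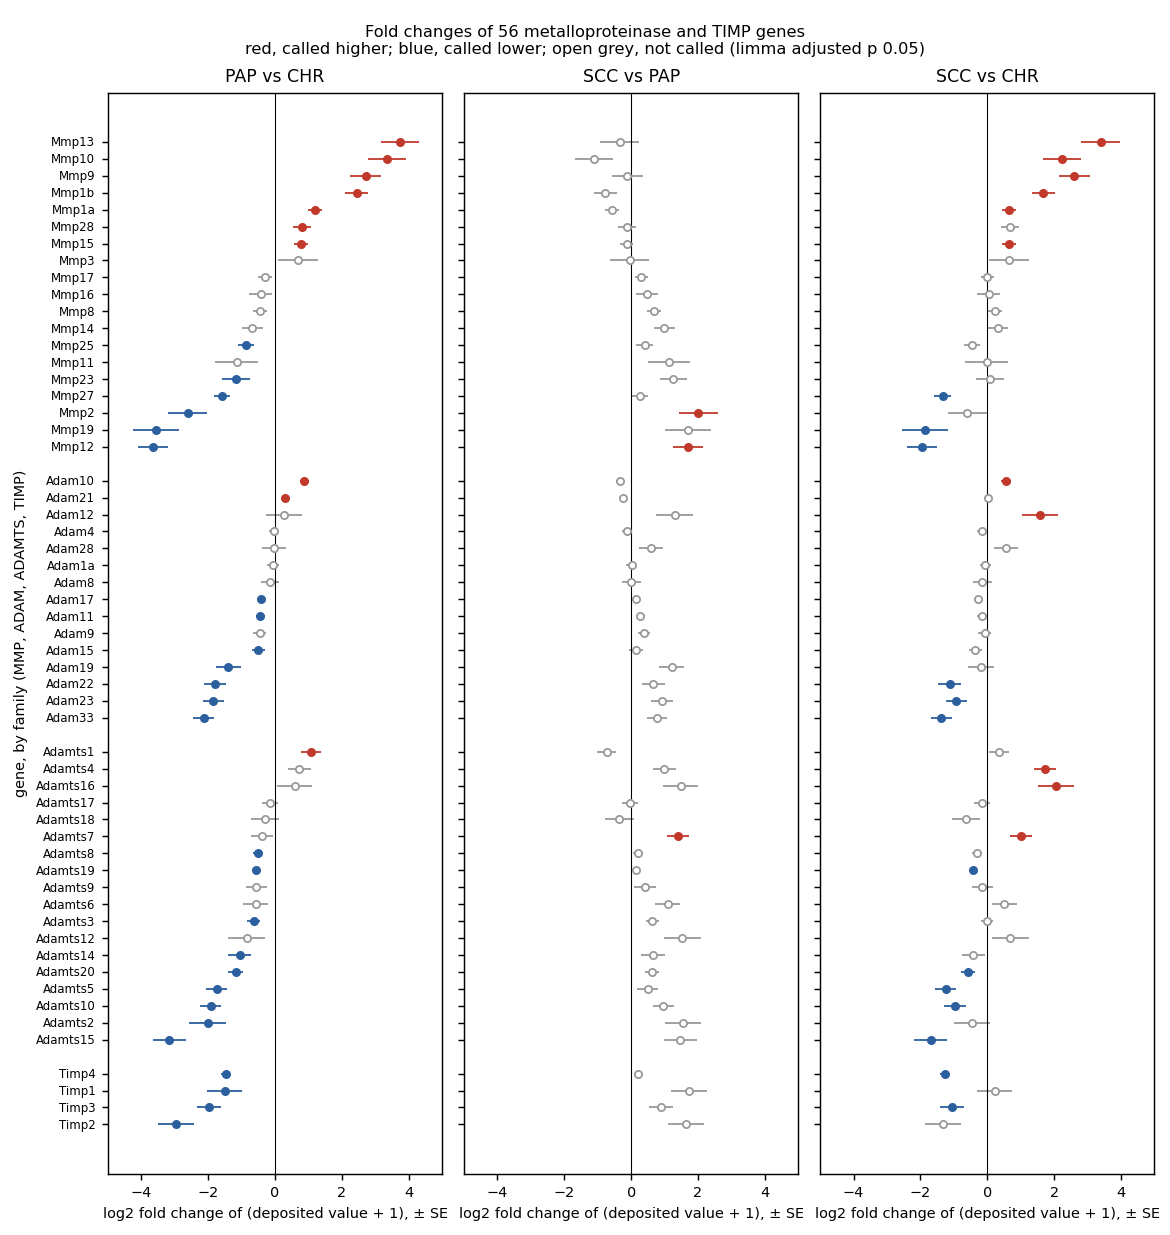
Log2 fold change ± SE of the 56 members (rows, grouped by family) in the 3 comparisons, on the scale of the log2 of the deposited value plus 1; filled points were called. Mmp13, Mmp1a, Mmp1b, Mmp10 and Mmp9 lie to the right in both comparisons with CHR, all 4 TIMPs lie to the left in PAP vs CHR, and 3 filled points, Mmp2, Mmp12 and Adamts7, appear in SCC vs PAP.

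**Figure D2:**
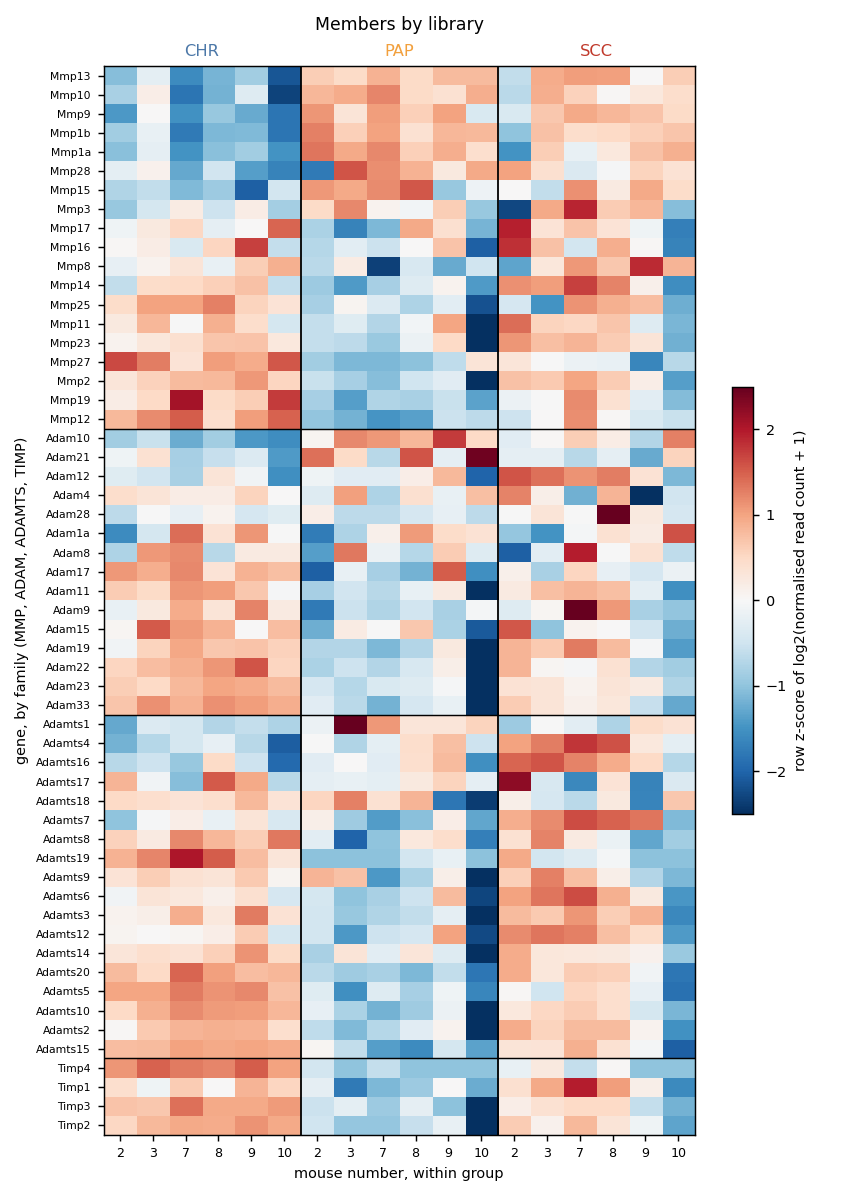
The 56 members (rows) in the 18 libraries (columns, by mouse number within CHR, PAP and SCC), coloured by the row z-score of log2 of normalised reads plus 1. The block of red in CHR turns blue in PAP for most ADAMTS and TIMP genes, and the columns of mouse 10 in PAP and SCC are the bluest of their groups.

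The proteases usually made by keratinocytes were higher in papillomas. Of the 5 measured, Mmp13, Mmp10, Mmp1a, Mmp1b and Mmp28, all 5 rose in PAP vs CHR, and 4 rose when SCC was set against CHR, with median log2 fold changes of 2.45 and 1.68. Over all genes 22.8% were called higher in PAP and 15.1% in SCC, both against CHR. The source lists were chosen with earlier results of these data known, so these counts are no independent support for a pattern by source. Mmp7, the matrilysin of this list, was not analysed here. Mmp13, the main interstitial collagenase of mice, ranged from 172 to 2863 normalised reads in CHR (median 793), from 8177 to 14751 in PAP (median 11461) and from 1642 to 18959 in SCC (median 13047). All papillomas lay above all CHR libraries, whereas the carcinoma of mouse 2, with 1642 normalised reads, lay within the CHR range. Its log2 fold change was 3.74 ± 0.58 (adjusted p = 4.05e-05) in PAP and 3.39 ± 0.58 (adjusted p = 0.000248) in SCC, both against CHR.

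Mmp10, stromelysin-2, ranged from 15.0 to 805 normalised reads in CHR (median 134), from 1138 to 4217 in PAP (median 2442) and from 214 to 2620.3 in SCC (median 1081). The PAP and CHR ranges were apart, and the carcinomas of mice 2 and 8 lay below the highest CHR library. The log2 fold change was 3.35 ± 0.57 (adjusted p = 0.000112) in PAP vs CHR and 2.23 ± 0.57 (adjusted p = 0.00583) in SCC vs CHR. Mmp1b and Mmp1a are mouse copies of interstitial collagenase that share 90.5% of bases over 1453 aligned transcript positions, and 6.33% and 4.30% of their 76-base stretches occur in the other, so reads could be split between them. Mmp1b ranged from 1.99 to 51.0 normalised reads in CHR (median 9.36), from 135 to 605 in PAP (median 288) and from 11.6 to 249 in SCC (median 181). Mmp1a held at most 6.15 normalised reads in CHR, 18.6 to 81.0 (median 41.8) in PAP and 0 to 39.6 (median 19.9) in SCC. Both were higher in all 6 papillomas than in any CHR library, and both were lowest, among carcinomas, in mouse 2. Mmp1b rose by 2.45 ± 0.35 on the log2 scale in PAP (adjusted p = 1.70e-05) and 1.68 ± 0.35 in SCC (adjusted p = 0.00124). Mmp1a rose by 1.20 ± 0.21 (adjusted p = 0.000128) and 0.64 ± 0.21 (adjusted p = 0.0227), but in SCC the call was lost without mouse 3, 8, 9 or 10 or the carcinoma of mouse 10 (adjusted p up to 0.0866). On recovered reads, without the compression of the deposited scale, limma-voom gave log2 fold changes in PAP vs CHR of 4.97 for Mmp1b and 4.85 for Mmp1a. Mmp28, epilysin, which is expressed in epidermis, ranged from 191 to 463 normalised reads in CHR (median 288), from 182 to 953 in PAP (median 683) and from 366 to 721 in SCC (median 527). Its groups overlapped, and its log2 fold change of 0.82 ± 0.27 (adjusted p = 0.0188) in PAP vs CHR was no longer called without mouse 7, 8, 9 or 10 (adjusted p up to 0.0893). In SCC vs CHR it was 0.69 ± 0.27 (adjusted p = 0.058). Set against 1000 reads of summed keratinocyte markers, Mmp13 held 0.435 to 5.39 normalised reads in CHR, 7.16 to 14.0 in PAP and 1.78 to 78.7 in SCC. By this measure PAP lay above CHR without overlap, while SCC overlapped CHR. Mmp10 held 0.0380 to 1.52, 1.11 to 3.26 and 0.232 to 6.44, and all of its groups overlapped. No test was made of these ratios.

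Mmp13, Mmp10, Mmp1a and Mmp1b lie in a group of 8 MMP genes within 309 kb of mouse chromosome 9 (GRCm38, chr9:7272514-7581885). In chromosomal order these are Mmp13, Mmp12, Mmp1b, Mmp3, Mmp1a, Mmp10, Mmp8 and Mmp27. Neighbours moved apart in PAP vs CHR. Mmp13, Mmp1b, Mmp1a and Mmp10 rose, Mmp12 and Mmp27 fell, and Mmp3 (log2 fold change 0.69 ± 0.59) and Mmp8 (-0.45 ± 0.21) did not pass the test. Mmp12 and Mmp1b overlap on opposite strands, and whether counting used strand is not given in the sources used here, so their reads may not be fully separate. Mmp27 ranged from 145 to 464 normalised reads in CHR (median 303), from 38.8 to 141 in PAP (median 45.3) and from 24.0 to 140.0 in SCC (median 91.3) and fell by 1.59 ± 0.24 on the log2 scale in PAP (adjusted p = 3.84e-05) and by 1.34 ± 0.24 in SCC (adjusted p = 0.000452), with neither lesion group overlapping CHR.

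**Figure D3:**
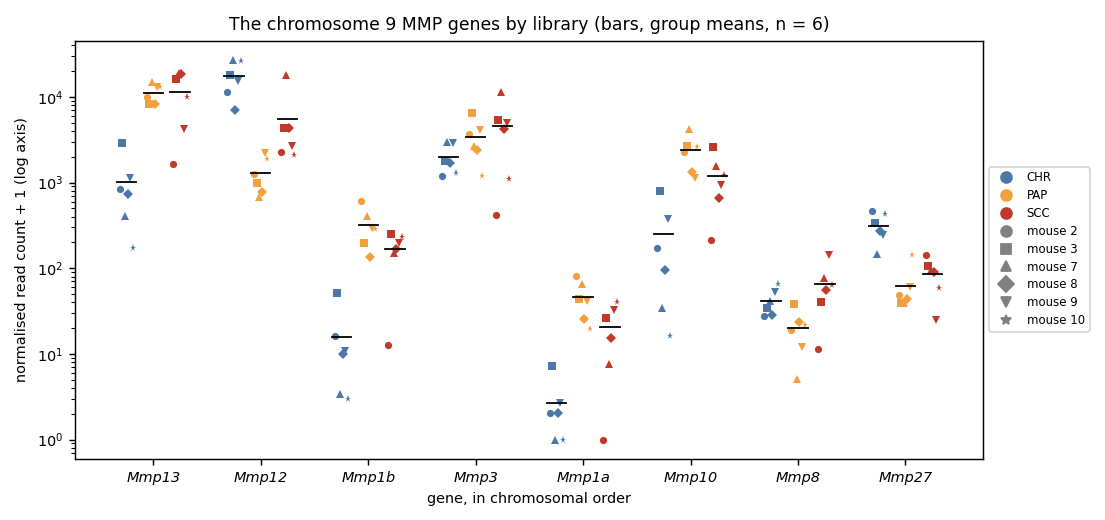
Normalised reads plus 1 (log axis) of the 8 chromosome 9 MMP genes, in chromosomal order, in each library (colour, group; symbol, mouse; bar, mean of n = 6). Mmp13, Mmp1b, Mmp1a and Mmp10 are higher in PAP than in CHR without overlap, Mmp12 and Mmp27 are lower, and the carcinoma of mouse 2 is lowest of its group in 4 of the 5 epithelial proteases.

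Collagenase and stromelysin promoters are textbook targets of AP-1, the Jun and Fos transcription factor. The AP-1 motif TGAGTCA, on either strand, was searched between 250 bases before and 50 bases after the transcription start in RefSeq promoters (GRCm38.p6), which were given for 36 of the 56 members. It was present in 6 of the 8 genes of the chromosome 9 group, in 1 of the other 28 members (Adam19) and, counted per gene in the same way, in 5.95% of all 27025 genes with a promoter. In Mmp12 it was in 1 of its promoter entries. It was absent from the windows of Mmp8 and Mmp27. The 100 bases before the RefSeq start of the 6 genes are shown to let the position of the motif, in capitals, be compared between the genes that rose (Mmp13, Mmp1b, Mmp1a, Mmp10), the one that fell (Mmp12) and the one that was not called (Mmp3).
Mmp13, chr9:7272414-7272513, plus strand: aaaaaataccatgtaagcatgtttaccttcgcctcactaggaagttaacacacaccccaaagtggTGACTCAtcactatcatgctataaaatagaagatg
Mmp12, chr9:7347274-7347373, plus strand: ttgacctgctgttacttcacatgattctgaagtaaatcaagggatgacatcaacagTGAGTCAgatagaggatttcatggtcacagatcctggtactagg
Mmp1b, chr9:7388027-7388126, minus strand: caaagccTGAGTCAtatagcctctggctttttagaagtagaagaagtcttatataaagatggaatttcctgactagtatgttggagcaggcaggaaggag
Mmp3, chr9:7445722-7445821, plus strand: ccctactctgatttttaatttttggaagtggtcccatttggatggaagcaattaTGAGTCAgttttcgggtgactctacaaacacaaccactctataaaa
Mmp1a, chr9:7464041-7464140, plus strand: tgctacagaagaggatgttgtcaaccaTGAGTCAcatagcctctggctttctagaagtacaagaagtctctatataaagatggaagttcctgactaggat
Mmp10, chr9:7502242-7502341, plus strand: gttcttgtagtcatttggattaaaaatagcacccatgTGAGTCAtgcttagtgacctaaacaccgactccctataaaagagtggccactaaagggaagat
The motif began 35 bases before the start in Mmp13, where it reads on the other strand, 44 in Mmp12, 93 in Mmp1b, 46 in Mmp3, 73 in Mmp1a and 63 in Mmp10. Both a gene that rose in all 6 papillomas and a gene that fell in all 6 thus hold the same 7 letters near their start. The letters TATAAA, on the gene's strand, occurred in the shown window of all but Mmp12.

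The proteases usually made by macrophages and neutrophils did not move together. Of 5, Mmp9 rose, Mmp12 and Mmp25 fell, and Mmp8 and Adam8 were not called in PAP vs CHR. Only Mmp9 (higher) and Mmp12 (lower) were called when SCC was compared with CHR. Mmp12, the macrophage elastase, ranged from 7017 to 27164 normalised reads in CHR (median 16775), from 684 to 2194 in PAP (median 1119.5) and from 2108 to 17887 in SCC (median 3481). Papillomas and CHR did not overlap, and of the carcinomas that of mouse 7, with 17887 normalised reads, lay within the CHR range. Log2 fold changes were -3.66 ± 0.46 (adjusted p = 4.86e-06) in PAP vs CHR, -1.96 ± 0.46 (adjusted p = 0.00309) in SCC vs CHR and 1.70 ± 0.46 (adjusted p = 0.042) in SCC vs PAP. The last call was lost under 10 of 16 alternatives, including without mouse 2, 3, 7, 8 or 9 (adjusted p up to 0.203).

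Mmp9, gelatinase B, which keratinocytes and endothelial cells can also make, ranged from 366 to 2864 normalised reads in CHR (median 632), from 1847 to 9554 in PAP (median 7103) and from 1831 to 8032 in SCC (median 6109). The highest CHR library, mouse 3 with 2864, exceeded the papilloma of mouse 10 and the carcinoma of mouse 2. Mmp9 rose by 2.72 ± 0.47 on the log2 scale in PAP (adjusted p = 0.000112) and by 2.60 ± 0.47 in SCC (adjusted p = 0.000374), in 6 of 6 and in 6 of 6 mice. Adam8, a protease of myeloid cells, had overlapping groups, with 2191 to 4349, 1769.6 to 4553 and 1408 to 5716 normalised reads in CHR, PAP and SCC and a log2 fold change of -0.15 ± 0.28 (adjusted p = 0.668) in PAP vs CHR. Mmp25, a membrane-anchored protease of leukocytes, ranged from 76.4 to 156 normalised reads in CHR (median 109), from 9.67 to 60.8 in PAP (median 37.6) and from 17.2 to 142 in SCC (median 73.9) and fell by 0.87 ± 0.25 in PAP (adjusted p = 0.00674) without overlap. Mmp8, neutrophil collagenase, stayed low, ranging from 26.4 to 64.4 normalised reads in CHR (median 37.1), from 4.10 to 37.1 in PAP (median 19.4) and from 10.3 to 141 in SCC (median 58.6), and its log2 fold change was -0.45 ± 0.21 (adjusted p = 0.088) in PAP vs CHR and 0.24 ± 0.21 (adjusted p = 0.411) in SCC vs CHR.

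Set against the macrophage markers of the same library, Mmp12 and Mmp9 behaved differently. Per 1000 reads of summed macrophage markers, Mmp12 held 163 to 751 normalised reads in CHR (median 411), 146 to 976 in PAP (median 165) and 168 to 385 in SCC (median 255). All 3 groups overlapped, although the medians of both lesion groups were below that of CHR. Mmp9 held 10.5 to 71.5 in CHR, 596 to 1992 in PAP and 137 to 875 in SCC, so that neither lesion group overlapped CHR. Adam8 per 1000 macrophage reads was 52.4 to 104.83 in CHR, 223 to 1335 in PAP and 105.05 to 421 in SCC. Neither lesion group overlapped CHR, but SCC and CHR almost met. Unlike Mmp9, Adam8 itself was not called in PAP vs CHR or SCC vs CHR. These ratios are descriptions of the libraries, without a test.

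**Figure D4:**
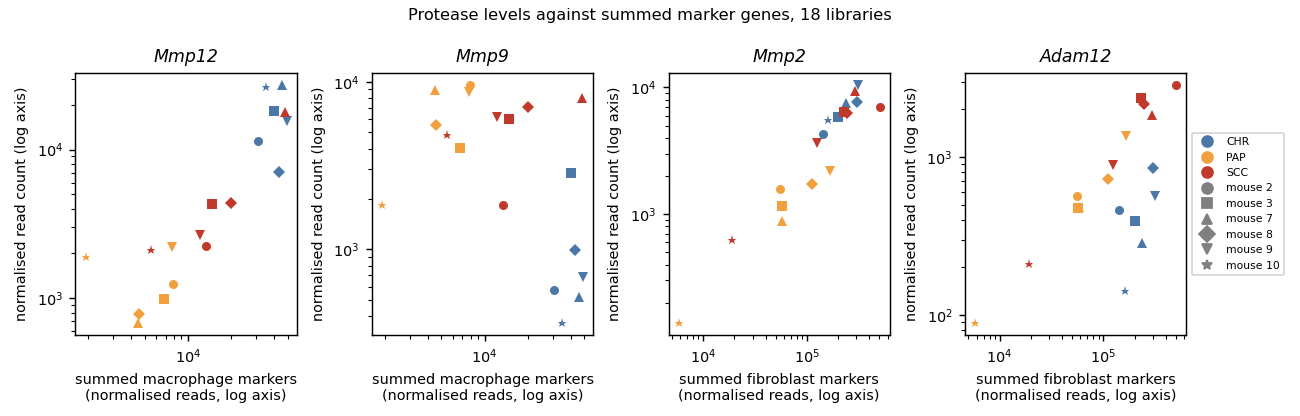
Normalised reads of 4 proteases (vertical, log axis) against summed marker reads of the same library (horizontal, log axis) in 18 libraries; colour is the group and symbol the mouse. Mmp12 is high in the CHR libraries, where macrophage marker sums are 30630.2 or more. Mmp9 is higher in most lesions than in CHR, whether the macrophage sum is low or, as in the carcinoma of mouse 7, 48045. The papilloma of mouse 10, with the lowest sum of 1923, holds the least Mmp9 of the papillomas. Mmp2 is low where the fibroblast sum is low, and Adam12 lies above all CHR libraries in 5 of 6 carcinomas.

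The proteases usually made by fibroblasts and other stromal cells mostly fell or did not pass the test in PAP. Of 15, 1 rose (Adamts1), 7 fell (Mmp2, Mmp23, Adam19, Adam33, Adamts2, Adamts5 and Adamts15) and 7 were not called, with a median log2 fold change of -1.15. The 53.3% called was near the 51.5% of all genes. In SCC vs CHR, 2 of the 15 rose (Adam12 and Adamts4), 3 fell (Adam33, Adamts5 and Adamts15) and their median was 0.04. There 33.3% of the list was called, beside 36.5% of all genes. Mmp2, gelatinase A, ranged from 4258 to 10444 normalised reads in CHR (median 6652), from 139 to 2190.4 in PAP (median 1369) and from 621 to 9417 in SCC (median 6339.5). All papillomas lay below all CHR libraries, while 5 carcinomas held 3663 or more and that of mouse 10 held 621. The log2 fold change was -2.61 ± 0.58 (adjusted p = 0.00118) in PAP vs CHR, -0.60 ± 0.58 (adjusted p = 0.443) in SCC vs CHR and 2.01 ± 0.58 (adjusted p = 0.0498) in SCC vs PAP. That last call was lost under 12 of 16 alternatives, including without mouse 2, 3, 7, 8 or 9 (adjusted p up to 0.259).

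Mmp14, the membrane-bound activator of pro-MMP2, ranged from 2419 to 4721 normalised reads in CHR (median 4176), from 1639 to 3423 in PAP (median 2143) and from 1524 to 7651 in SCC (median 5668), and its log2 fold change was -0.68 ± 0.31 (adjusted p = 0.08) in PAP vs CHR and 0.99 ± 0.31 (adjusted p = 0.0684) in SCC vs PAP. With the mouse as a block both were called (adjusted p = 0.0366 and 0.0274), and Mmp14 was lower in PAP than CHR in 6 of 6 mice. Mmp11, stromelysin-3 of tumour stroma, ranged from 336 to 1521 normalised reads in CHR (median 829), from 17.9 to 1716 in PAP (median 334) and from 149 to 2763 in SCC (median 1023), with wide overlap and a log2 fold change of -1.15 ± 0.64 (adjusted p = 0.142) in PAP vs CHR. Mmp3, stromelysin-1, ranged from 1187 to 2980.3 normalised reads in CHR (median 1736), from 1192 to 6509 in PAP (median 3207) and from 419 to 11399 in SCC (median 4544), with overlap of all groups. Mmp23 ranged from 185 to 376 normalised reads in CHR (median 249.5), from 4.10 to 299 in PAP (median 81.5) and from 42.2 to 590.1 in SCC (median 372) and fell in PAP by 1.17 ± 0.41 (adjusted p = 0.0246), a call lost without mouse 3, 7 or 8 and without the papilloma of mouse 10 (adjusted p up to 0.0748). Mmp16, a membrane-type MMP, ranged from 43.9 to 270.2 normalised reads in CHR (median 77.3), from 13.6 to 124 in PAP (median 51.9) and from 18.6 to 297 in SCC (median 99.6) and had a log2 fold change in PAP vs CHR of -0.43 ± 0.34 (adjusted p = 0.305).

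Among stromal ADAMs and ADAMTS genes, the members split by lesion. Adam12, a protease of tumour stroma and of fusing muscle cells, ranged from 142 to 853 normalised reads in CHR (median 429), from 89.4 to 1365 in PAP (median 523) and from 209 to 2847 in SCC (median 1998). Of the carcinomas, 5 held 888 or more and mouse 10 held 209. It was higher in SCC vs CHR by 1.58 ± 0.55 (adjusted p = 0.0318), which was lost without mouse 2, 3, 7 or 8, without the carcinoma of mouse 2 and with limma-voom on recovered reads (adjusted p up to 0.113), and its value in PAP vs CHR was 0.27 ± 0.55 (adjusted p = 0.704). Adamts4, an aggrecanase, ranged from 77.3 to 336 normalised reads in CHR (median 225), from 219 to 701 in PAP (median 355) and from 322 to 1577 in SCC (median 963), and rose in SCC vs CHR by 1.73 ± 0.34 (adjusted p = 0.00084). In PAP vs CHR it was 0.73 ± 0.34 (adjusted p = 0.0819), and with the mouse as a block it was called (adjusted p = 0.0338). Adamts1, which cuts versican, ranged from 2537 to 3995 normalised reads in CHR (median 3424), from 4400.1 to 21661 in PAP (median 5799.5) and from 3037 to 5849 in SCC (median 4418). The papilloma of mouse 3 held 21661 and the other papillomas still exceeded all CHR libraries. The log2 fold change was 1.08 ± 0.29 (adjusted p = 0.00501) in PAP vs CHR and 0.34 ± 0.29 (adjusted p = 0.375) in SCC vs CHR.

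Adamts15, a versican-cutting enzyme, ranged from 704 to 1094 normalised reads in CHR (median 955), from 9.67 to 194 in PAP (median 37.0) and from 3.63 to 883 in SCC (median 319). Its log2 fold change was -3.16 ± 0.50 (adjusted p = 4.68e-05) in PAP vs CHR and -1.69 ± 0.50 (adjusted p = 0.0131) in SCC vs CHR, which was lost without mouse 9 (adjusted p = 0.0603). Adamts5, the main mouse aggrecanase, ranged from 2194 to 3264 normalised reads in CHR (median 2775), from 423 to 1226 in PAP (median 899) and from 362 to 1929 in SCC (median 1253), so that neither lesion group overlapped CHR. It fell by 1.75 ± 0.32 in PAP (adjusted p = 0.000186) and by 1.25 ± 0.32 in SCC (adjusted p = 0.00527). Adam33, a mesenchymal gene, ranged from 277 to 498 normalised reads in CHR (median 407), from 3.19 to 88.5 in PAP (median 56.4) and from 20.9 to 259 in SCC (median 149) and showed the same order, with -2.14 ± 0.31 in PAP (adjusted p = 2.15e-05) and -1.37 ± 0.31 in SCC (adjusted p = 0.00243). Adamts2, the main procollagen N-proteinase, ranged from 1982 to 4660.1 normalised reads in CHR (median 4088), from 131 to 2104 in PAP (median 983) and from 421 to 4814 in SCC (median 3792) and was -2.01 ± 0.55 (adjusted p = 0.00522) in PAP vs CHR. The carcinoma of mouse 10, at 421, lay within the papilloma range, and the other 5 carcinomas lay at 2106 or above. Adam19, a sheddase of mesenchyme, ranged from 786 to 1681 normalised reads in CHR (median 1314), from 135 to 993 in PAP (median 486) and from 301 to 2143 in SCC (median 1406) and fell in PAP by 1.39 ± 0.38 (adjusted p = 0.00553). Adamts12 ranged from 493 to 1359 normalised reads in CHR (median 794), from 89.4 to 1911 in PAP (median 473) and from 199 to 2622 in SCC (median 1882) and was -0.84 ± 0.55 (adjusted p = 0.214).

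Per 1000 reads of summed fibroblast markers, Mmp2 held 25.2 to 34.5 normalised reads in CHR, 13.1 to 28.6 in PAP and 14.0 to 32.5 in SCC, and Adamts2 held 14.0 to 18.8, 11.1 to 22.6 and 9.57 to 22.0. The groups overlapped for both, and also for Mmp14, Adamts5 and Timp3, but medians could differ. In CHR, PAP and SCC the medians were 30.8, 17.8 and 28.6 for Mmp2 and 16.7, 14.6 and 15.8 for Adamts2. They were 16.1, 33.2 and 25.5 for Mmp14, 13.4, 13.1 and 6.94 for Adamts5, and 21.9, 22.3 and 11.6 for Timp3. Timp2 per 1000 fibroblast reads was 21.9 to 42.2 in CHR, 9.89 to 21.8 in PAP and 9.23 to 24.0 in SCC, so that PAP lay below CHR without overlap while SCC overlapped. Adamts15 was 3.24 to 5.78, 0.0867 to 3.53 and 0.190 to 3.01, and here SCC lay below CHR without overlap while PAP overlapped. Adam12 by the same measure was 0.881 to 3.26 in CHR, 6.52 to 15.4 in PAP and 5.66 to 10.9 in SCC, and Adamts4 was 0.480 to 1.17, 3.81 to 45.0 and 1.72 to 16.8. For both, neither lesion group overlapped CHR. Again no test was made of these ratios.

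All 4 TIMPs were lower in papillomas. Timp2, which also takes part in activating pro-MMP2, ranged from 4006 to 8326 normalised reads in CHR (median 6712), from 98.9 to 1768 in PAP (median 899.9) and from 459 to 5697 in SCC (median 2837). Papillomas and CHR did not overlap, and the carcinoma of mouse 10 (459) lay below 5 of 6 papillomas. Its log2 fold change was -2.96 ± 0.54 (adjusted p = 0.000187) in PAP vs CHR and -1.33 ± 0.54 (adjusted p = 0.0595) in SCC vs CHR, and the latter was called with the mouse as a block (adjusted p = 0.0288). Timp3, which is bound to the matrix and also inhibits ADAM17, ranged from 3604 to 6097 normalised reads in CHR (median 4447), from 308 to 1799.6 in PAP (median 1252) and from 877 to 3132 in SCC (median 2644), with neither lesion group overlapping CHR, and fell by 1.97 ± 0.36 in PAP (adjusted p = 0.000188) and by 1.06 ± 0.36 in SCC (adjusted p = 0.026). The SCC call was lost without mouse 7 or 9, or without the carcinoma of mouse 10 (adjusted p up to 0.104). Timp1, an inducible inhibitor, ranged from 313 to 876 normalised reads in CHR (median 588), from 51.8 to 351 in PAP (median 119) and from 63.5 to 2866 in SCC (median 749). It had a log2 fold change of -1.51 ± 0.53 (adjusted p = 0.024) in PAP vs CHR, which was lost without mouse 3 and with limma-voom at either scaling (adjusted p up to 0.0576), and of 0.22 ± 0.53 (adjusted p = 0.772) in SCC vs CHR.

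Timp4, an inhibitor known from heart, muscle and fat, was read 334 times in all over the 6 CHR libraries and 3 times over the 6 papillomas. The papilloma level was 0.888% of that of CHR, with an exact binomial 95% interval of 0.182 to 2.62% that covers counting error only. It ranged from 32.0 to 80.1 normalised reads in CHR (median 50.5), from 0 to 1.64 in PAP (median 0) and from 0 to 7.85 in SCC (median 2.11). Skeletal muscle markers summed to 375508 to 564465 in CHR, 192 to 28075 in PAP and 410.2 to 188592 in SCC, where 5 carcinomas held 70271 or more, and adipocyte markers to 3289 to 11769, 3.70 to 276 and 1.03 to 1578. Timp4 was called in both comparisons with CHR, with adjusted p = 2.48e-07 and 4.72e-06. Timp1, Timp3 and Timp4 overlap synapsin genes on the other strand, and whether counting used strand is not given in the sources used here.

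Summed per kilobase of annotated exons, MMP level over TIMP level was 2.55 to 4.20 in CHR (median 2.82), 13.0 to 51.7 in PAP (median 19.3) and 3.14 to 25.9 in SCC (median 7.45). Every papilloma exceeded every CHR library. The carcinoma of mouse 2 lay within the CHR range and that of mouse 10 within the papilloma range. The summed TIMP level went from a median of 2851 per kilobase in CHR to 555 in PAP and 2086 in SCC, and the summed MMP level from 9391 to 11229 and 12876. The ratio is of RNA and gives no measure of enzyme activity. Lengths were the union of all annotated exons, 7.24 kb for Mmp12 beside 1.72 kb for Mmp10 and 1.80 kb for Mmp3. Mmp12 had a mean of 17566 normalised reads in CHR, 1296 in PAP and 5592 in SCC. A shorter length for it would raise the MMP sum most in CHR. The order of the summed MMP levels may therefore depend on this choice, which was not tested.

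**Figure D5:**
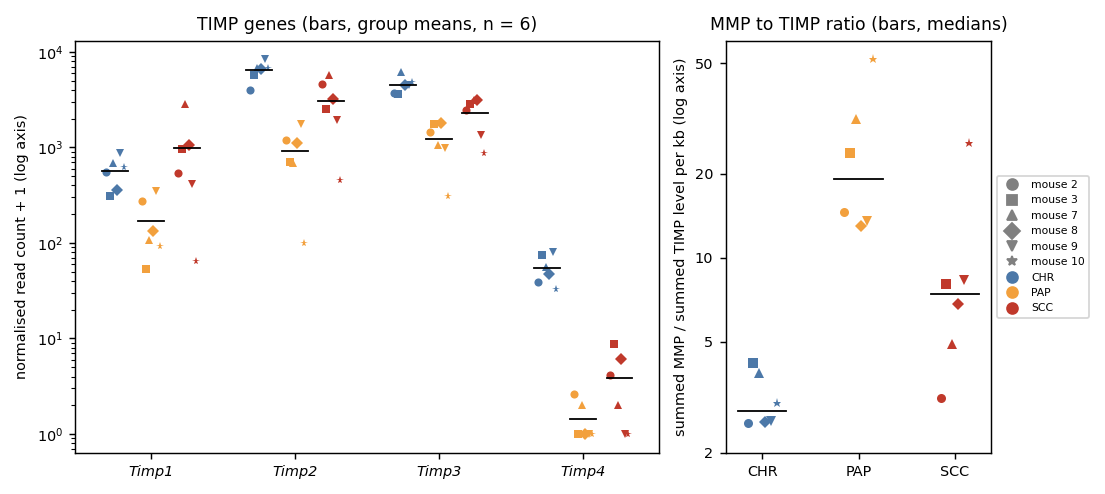
Left, normalised reads plus 1 (log axis) of the 4 TIMP genes in each library, with group means as bars (n = 6); right, the summed MMP level over the summed TIMP level per kilobase of exon (log axis), with group medians as bars. All papillomas lie above all CHR libraries on the right, and the carcinomas lie between 3.14 and 25.9.

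The 3 source lists made up different shares of their joint level per kilobase. These shares rest on the same exon lengths, and the 7.24 kb of Mmp12 bears on the macrophage and neutrophil share. Epithelial proteases held 1.36 to 14.3% (median 5.37%) in CHR, 31.2 to 64.9% (median 40.8%) in PAP and 10.6 to 51.1% (median 34.9%) in SCC. Stromal proteases held 49.8 to 75.1% (median 58.4%), 22.1 to 54.6% (median 36.3%) and 25.7 to 76.5% (median 46.7%). Macrophage and neutrophil proteases held 20.1 to 48.8% (median 34.4%), 13.0 to 24.8% (median 20.5%) and 13.0 to 24.6% (median 19.6%). In every papilloma the epithelial share exceeded that of every CHR library, whereas the SCC range overlapped that of CHR. Single genes made up much of the epithelial and the macrophage and neutrophil sums. Mmp13 was the largest part of the epithelial sum in every library, from 52.1% (CHR, mouse 10) to 91.9% (SCC, mouse 8). Mmp12 was the largest part of the macrophage and neutrophil sum in every CHR library, at 54.6 to 81.7%. In papillomas the largest part was Mmp9, up to 82.6% (mouse 2), except in mouse 10, where it was Adam8. In carcinomas it was Mmp9, except in mouse 7, where it was Mmp12. The lists name the usual source of a gene, and bulk RNA does not show which cell made it.

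Outside these lists, the ADAM sheddases Adam10 and Adam17 moved in opposite directions. Adam10, which cuts Notch and cadherins, ranged from 2994 to 4088 normalised reads in CHR (median 3496), from 4965 to 8359 in PAP (median 6534) and from 3854 to 7183 in SCC (median 5023), and no papilloma overlapped CHR. It rose by 0.88 ± 0.15 in PAP (adjusted p = 8.54e-05) and by 0.56 ± 0.15 in SCC (adjusted p = 0.00663). Adam17, which releases tumour necrosis factor and epidermal growth factor receptor ligands, ranged from 3579 to 4197 normalised reads in CHR (median 3958), from 2292 to 4455 in PAP (median 2782) and from 2878 to 3701 in SCC (median 3249) and fell by 0.41 ± 0.13 in PAP (adjusted p = 0.0111), a call lost without mouse 2 and with centring on the median of all genes, which moves that median by 0.14 (adjusted p up to 0.0687). The sheddase Adam9 had a log2 fold change of -0.46 ± 0.19 (adjusted p = 0.0547) and was called with the mouse as a block (adjusted p = 0.0473). Adam15 fell by 0.50 ± 0.20 (adjusted p = 0.0419), which was lost without mouse 3, 7, 9 or 10, without the papilloma of mouse 10 and with median centring (adjusted p up to 0.128).

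Adam11, Adam22 and Adam23, neural adhesion proteins of the family that lack protease activity, all fell in PAP vs CHR. Adam23 ranged from 377 to 673 normalised reads in CHR (median 539), from 3.19 to 206 in PAP (median 132) and from 87.6 to 325 in SCC (median 289), with neither lesion group overlapping CHR, and fell by 1.85 ± 0.32 in PAP (adjusted p = 0.00012) and 0.93 ± 0.32 in SCC (adjusted p = 0.0298). The SCC call was lost without mouse 7, 8 or 9, without the carcinoma of mouse 10 and with limma-voom at either scaling (adjusted p up to 0.0777). Adam22 was -1.79 ± 0.34 (adjusted p = 0.000268) in PAP and Adam11 -0.44 ± 0.14 (adjusted p = 0.012). Of the other ADAMs, Adam21 was 0.28 ± 0.11 (adjusted p = 0.0457) in PAP, from no more than 43.1 normalised reads, and was lost under 9 of 16 alternatives, including without mouse 2, 8 or 10 (adjusted p up to 0.208). Adam1a, Adam4 and Adam28 were not called in any comparison, and 77.0% of the 76-base stretches of Adam1a and 10.5% of those of Adam4 occur in other genes, so their levels are uncertain. Adam28, a lymphocyte ADAM, held at most 5.09 normalised reads in 17 libraries and 301 in the carcinoma of mouse 8.

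Among the remaining MMPs, Mmp19 and Mmp15 were called in both comparisons with CHR. Mmp19, a protease of vessels and macrophages, ranged from 659 to 12392 normalised reads in CHR (median 1176), from 59.0 to 206 in PAP (median 138) and from 91.3 to 3086 in SCC (median 437). The CHR libraries of mice 7 and 10 held 12392 and 7269 while the other 4 held at most 1287, and mouse 7 was also highest among the carcinomas. The log2 fold change was -3.55 ± 0.69 (adjusted p = 0.000358) in PAP and -1.86 ± 0.69 (adjusted p = 0.0422) in SCC, the latter lost under 7 of 16 alternatives, including without mouse 3, 8, 9 or 10 (adjusted p up to 0.209). Mmp15, a membrane-type MMP of epithelia, rose by 0.78 ± 0.20 in PAP (adjusted p = 0.0036) and by 0.64 ± 0.20 in SCC (adjusted p = 0.0185), the latter lost without mouse 7. Its range was 81.0 to 167 normalised reads in CHR and 133 to 421 in PAP. Mmp17, also membrane-type, was -0.31 ± 0.20 (adjusted p = 0.217) in PAP vs CHR.

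The ADAMTS genes outside the stromal list fell or did not pass the test in PAP. The procollagen-trimming Adamts3 and Adamts14 were -0.64 ± 0.19 (adjusted p = 0.0089) and -1.06 ± 0.35 (adjusted p = 0.0166), the latter lost without mouse 9 (adjusted p = 0.062). Adamts10, of the microfibril-binding kind, ranged from 523 to 963 normalised reads in CHR (median 797), from 32.9 to 288 in PAP (median 155) and from 118 to 593 in SCC (median 454), and no papilloma overlapped CHR. It fell by 1.93 ± 0.32 in PAP (adjusted p = 8.85e-05) and by 0.96 ± 0.32 in SCC (adjusted p = 0.0261), the latter lost without mouse 8 or 9 or the carcinoma of mouse 10 (adjusted p up to 0.0958). Adamts8 was -0.51 ± 0.16 (adjusted p = 0.0115) in PAP vs CHR, which was lost without mouse 7 or 10 (adjusted p up to 0.0584), and Adamts20, an enzyme of melanocyte development, was -1.18 ± 0.21 (adjusted p = 0.000164) in PAP vs CHR. Adamts19 was read 53 times over the 6 CHR libraries and 2 times over the papillomas, or 3.73% of the CHR level (exact binomial 95% interval 0.441 to 14.2%).

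Adamts16 and Adamts7 were higher in carcinomas. Adamts16 ranged from 2.77 to 162 normalised reads in CHR (median 29.6), from 6.15 to 266 in PAP (median 63.3) and from 24.8 to 875 in SCC (median 428), with a log2 fold change of 2.06 ± 0.53 (adjusted p = 0.00578) in SCC vs CHR and 0.58 ± 0.53 (adjusted p = 0.373) in PAP vs CHR. Adamts7, which cuts cartilage oligomeric matrix protein, ranged from 64.4 to 193 normalised reads in CHR (median 136), from 46.5 to 169 in PAP (median 66.3) and from 59.0 to 565 in SCC (median 419.9). Of the carcinomas, 5 exceeded every library of CHR and PAP, and that of mouse 10 held 59.0. It was 1.40 ± 0.33 (adjusted p = 0.0295) in SCC vs PAP and 1.02 ± 0.33 (adjusted p = 0.0224) in SCC vs CHR, and these calls were lost under 8 and 7 of 16 alternatives, both without mouse 3, 7 or 8 and with limma-voom at either scaling (adjusted p up to 0.2 and 0.0856). Adamts6, Adamts9, Adamts17 and Adamts18 were not called in any of the 3 comparisons.

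Whether members changed early or late was asked with a mixed model that has the mouse as a random effect and an unadjusted p under 0.05. By this rule 22 members were early, that is, changed from CHR in both lesions, beside 41.1% of all genes. A further 3 were late, Adam12, Adamts7 and Adamts16, which differed in SCC from both other groups, beside 2.2% of all genes, and 1, Adamts4, was stepwise, beside 0.523%. Without mouse 10, late members numbered 6, and without mouse 2, 8 or 10 stepwise members numbered 0.

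The 14 members that were called in SCC vs PAP with the mouse as a block and not without it were Adam12, Adam19, Adam23, Adamts2, Adamts3, Adamts4, Adamts6, Adamts10, Adamts12, Adamts16, Adamts20, Mmp14, Mmp23 and Timp2, each with an adjusted p between 0.0179 and 0.0469 with the block. Of these, 7 are in the stromal list. Of the 10 fibroblast markers, 4 were called higher in that fit. Without mouse 10, 23 members were called in SCC vs PAP, 21 higher and 2 lower (Adam10 and Mmp1a), beside 14.6% of all genes. Leaving out the carcinoma of mouse 10 alone gave 26, a count for which the share of all genes is not given here. Without mouse 3, 7 or 8, 0 were called by limma at an adjusted p under 0.05, and 18 to 23 had an unadjusted p under 0.05. On recovered reads limma-voom also called 0, beside 0.0% of all genes, with 23 at an unadjusted p under 0.05. Without the papilloma of mouse 10 limma called 0, with 24 at an unadjusted p under 0.05, and without mouse 9 or without the carcinoma of mouse 2 it called 1. The shares of all genes without mouse 3, 7, 8 or 9, or without either of these 2 lesions, are not given here. Whether the members lost more calls than other genes can therefore not be read from these counts. In the main fit 28 members and 3289 of 14521 genes had an unadjusted limma p under 0.05 in SCC vs PAP.

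Other genes of the pathway were read from lists of activators, of inhibitors and clearance receptors, and of ADAMTS-like proteins. Of 10 activators measured, 2 rose and 1 fell in PAP vs CHR, that is, 30% were called, beside 51.5% of all genes. Furin, which activates pro-ADAMs and membrane-type MMPs, was 0.48 ± 0.13 (adjusted p = 0.00411), Bsg, the MMP inducer basigin, was 0.91 ± 0.11 (adjusted p = 3.34e-06), and the convertase Pcsk6 was -1.85 ± 0.31 (adjusted p = 7.74e-05). Of 6 inhibitors and clearance receptors reported here, 2 fell and 4 were not called in PAP vs CHR, beside 28.7% of all genes called lower. Reck, a membrane-anchored inhibitor of MMP14, MMP2 and MMP9, was -2.18 ± 0.26 (adjusted p = 3.43e-06) in PAP and -1.17 ± 0.26 (adjusted p = 0.00237) in SCC vs CHR, so it was lower in both. Lrp1, an endocytic receptor that clears proteases and their inhibitors, was also lower, at -1.39 ± 0.30 (adjusted p = 0.00081) and -0.97 ± 0.30 (adjusted p = 0.0166), the latter lost without mouse 3, 9 or 10. The broad protease inhibitor A2m and the Kunitz inhibitor Tfpi2 were 2.04 ± 0.53 (adjusted p = 0.00603) and 0.83 ± 0.26 (adjusted p = 0.0201) in SCC vs CHR, and the calls were lost with limma-voom for A2m and without mouse 3, 7 or 8 for Tfpi2. Of 8 ADAMTS-like and related genes, Adamtsl1, Adamtsl3 and Adamtsl4, secreted proteins without protease activity, fell in PAP by 2.52 ± 0.36, 1.49 ± 0.25 and 1.48 ± 0.22 (adjusted p = 1.66e-05, 0.000109 and 3.11e-05), and Papln and Adamdec1 were 0.96 ± 0.31 (adjusted p = 0.0142) and 1.10 ± 0.43 (adjusted p = 0.0404), calls lost without mouse 7 and, for Adamdec1, also without mouse 2, 3 or 9 and with limma-voom at either scaling.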

How the data were processed

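mRNA was sequenced from 18 libraries, 3 from each of 6 mice, with groups and mouse numbers taken from the sample titles. The authors mapped reads to mm10, obtained gene counts from HTSeq, scaled them and stabilised their variance by DESeq2. The paper names the aligner MOSAIK for the human reads and no aligner for the mouse reads. It also describes a correction of the transformed values for experimental batches. Whether the deposited values carry that correction is not given in the sources used here. Deposited values are whole-number scores on the linear scale of the variance-stabilising transformation, in which 0 reads appear as 39. Software versions, annotation release and strandedness are not given in the sources used here. Genes with low counts had been removed before deposition, since the smallest row maximum was 57, and all 18 columns were used.

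The transformation was inverted with a zero level of 39.12. Within 0.5 units of the deposited score, 97.7% of values were whole reads, as were 100% of values under 100. The zero level and size factors were themselves fitted to the values under 100, so this match is no independent check. Size factors were 0.834 to 1.18 and depth 15.4 to 21.0 M reads (median 18.9 M). On simulated reads the size factors came out within 0.165% of the true ones. No pair of libraries had more than 2.24% equal values. Of 14542 rows, 21 carried a number in place of a symbol (at most 0.236% of a library) and were left out.

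The main test was limma 3.58.1 (R 4.3.3) on log2(value + 1), with a pseudocount of 1, all 18 libraries, no covariate, two-sided, with Benjamini-Hochberg adjustment over 14521 genes and a threshold of 0.05. Tested on simulated data with the design of PAP vs CHR, it recovered 82.1% of genes changed by 2-fold and 92.6% of genes changed by 4-fold among 14521 genes, with 3.33% false calls and 0 calls in an unchanged comparison. That simulation changed 200 genes, took the spread of every group from the CHR libraries and held no mouse effect. Spread could be wider in lesions, as for Timp1, with an SD of 992 around a mean of 984 in SCC and of 211 around 568 in CHR. The simulated rates therefore need not hold for the lesion groups. The mouse number pairs libraries because the titles name the same animal. Same-mouse correlations of deviations from group means were -0.245 to 0.507. Tissue pieces within a mouse were separate samples. The progression classes used a mixed model per gene with the mouse as a random effect, checked against nlme 3.1.168 on 200 genes (100% same calls).

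Levels per kilobase used the union of all annotated exons of each gene in GENCODE M21 for GRCm38. Promoters came from RefSeq for GRCm38.p6. Alternatives were a pseudocount of 10, a minimum mean of 10 recovered reads, limma-voom on recovered reads with size factors or with library totals, median centring, a fit of only the groups compared, the mouse as a block, and each mouse left out. Leaving out the carcinoma of mouse 10, that of mouse 2 or the papilloma of mouse 10 was added after the data were seen. The members and gene lists were chosen with earlier results of these data known. Named with the range in each group were the measured source lists, the TIMPs and the 10 called members of largest fold change in each comparison, and other members by range or single value. Mmp7, Mmp20, Mmp21, Mmp24, Adamts13, Adam2, Adam7, Adam18, Adam29 and Adam32 were not analysed here. 1 gene of the list of inhibitors and clearance receptors is not reported here.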

Additional observations from a re-analysis of the deposited data

Results flagged for a closer look

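In 168 combinations of a member and a group, the highest or lowest of 6 libraries was set against the others by Dixon's ratio. This marked 18 combinations, or 10.7%. The rule would mark about 1 in 20 independent groups of normally distributed values. Members share the same libraries, so the combinations are not independent and no excess over chance can be read from this share. Mouse 10 accounts for most of them.

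The carcinoma of mouse 10 was far below the other 5 carcinomas in 6 members. It held 621 normalised reads of Mmp2 (others 3663 to 9417), 421 of Adamts2 (2106 to 4814), 59.0 of Adamts7 (314 to 565) and 199 of Adamts12 (1139 to 2622). Adam23 and Adamts3 stood at 87.6 (236 to 325) and 3.63 (37.9 to 60.8) in the same library. Its fibroblast marker sum, 19112, was the lowest of the carcinomas. The papilloma of the same mouse was far below the other papillomas in Mmp2, with 139 (others 880.4 to 2190.4), in Timp2, with 98.9 (694 to 1768), in Timp3, with 308 (976 to 1799.6), and in Adam23, with 3.19 (92.3 to 206). It was far above them in Mmp27, with 141 (38.8 to 59.9).

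The carcinoma of mouse 2 was far below the others in Mmp1b, with 11.6 normalised reads (others 151 to 249), and in Mmp9, with 1831 (4791 to 8032). High values stood apart for Mmp12 in the carcinoma of mouse 7 (17887, others 2108 to 4350.1), whose macrophage marker sum of 48045 was also the highest of the carcinomas, and for Adam28 in the carcinoma of mouse 8 (301, others 1.64 to 5.09). The papilloma of mouse 3 held 21661 normalised reads of Adamts1 (others 4400.1 to 7959). In CHR, mouse 9 was high in Adamts14, with 464 (198 to 268), and in Adamts18, with 128 (60.8 to 78.2). The causes were not tested.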

How the results depend on the processing

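Over 56 members and 25 pathway genes in 3 comparisons, 3885 alternative values were computed, of which 3584 stayed on their side of the threshold, 166 lost a call, 135 gained one and 0 turned a called direction around. In PAP vs CHR the members called were 33 to 39 of 56 under every alternative, and 33 to 35 with 1 mouse left out. In SCC vs PAP the 3 calls became 17 with the mouse as a block, 0 with limma-voom on recovered reads, with limma-voom scaled by library total and with only the groups compared, and 0 to 23 with 1 mouse left out. They became 26 without the carcinoma of mouse 10, 1 without that of mouse 2 and 0 without the papilloma of mouse 10. In SCC vs CHR the 24 calls were 15 to 25 with 1 mouse left out. The shares of all genes called under most of these alternatives are not given here. The 3 late members were 1 with adjusted p-values and 3 to 6 with 1 mouse left out. The 1 stepwise member was 0 with adjusted p-values, 0 with no replicate block, and 0 or 1 with 1 mouse left out. The mouse block gained 22 of these calls and lost 0. The cause of these shifts was not tested. Depth limits the lowest members, since Adamts19 and Timp4 had 2 and 3 reads over all papillomas.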
